A study of Mus musculus with 2 samples.

Results

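The genes described are 10 rows of the deposited matrix, of 32285 gene rows in all, that encode the B cell receptor and the machinery that assembles it: Cd79a, Cd79b, Ighm, Igkc, Vpreb1, Vpreb3, Igll1, Rag1, Rag2 and Dntt. They were chosen by symbol alone, and each symbol matched 1 row. They were followed in the B cells and the other cells of a sorted fetal lung suspension, taken on gestation day 18 (E18). The mothers were wild type, 9 weeks old, and drank water with dexamethasone (DEX), a synthetic glucocorticoid, at 1.3 µg/ml from gestation day 12, or water with PBS as the control. The fetuses of each mother were pooled as 1 litter under 1 hashtag antibody, which gave DEX-1 (8 fetuses), DEX-2 (9), PBS-1 (5) and PBS-2 (8). All 4 litters shared 1 droplet run, and the litter is the replicate. The study's methods describe a sort for group 2 innate lymphoid cells (ILC2s) as CD45+ ST2+ cells that lacked a set of lineage markers. The B cells here are therefore cells that passed a gate set for ILC2s, and their number is no measure of B cells in the lung.

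The B cell receptor is built in steps. In a pro-B cell the RAG1 and RAG2 recombinase cuts the heavy chain locus, and terminal transferase, from Dntt, can add bases at the joins. The new mu heavy chain, whose constant part is Ighm, then pairs with a surrogate light chain made from Vpreb1 and Igll1 and signals through CD79A and CD79B as the pre-B receptor. A rearranged kappa chain (constant part Igkc) or lambda chain later replaces the surrogate. Vpreb3 encodes a related protein that stays inside the cell and binds newly made chains.

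The promoters of 4 members are printed because they mark the steps: Cd79a and Vpreb3 were abundant in the B cells described below, and Vpreb1 and Igll1 were nearly absent. Each is RefSeq sequence (GRCm38.p6) from 250 bases before to 50 bases after the annotated start, 5′ to 3′ on the strand of the gene. Capitals mark E-boxes, which E2A-type factors can bind, with the letters CACCTG, the reverse complement CAGGTG, or the palindrome CAGCTG. Capitals also mark the octamer ATGCAAAT, or its reverse complement ATTTGCAT, which OCT factors can bind. The windows are chr7:24897247-24897546 (+) for Cd79a, chr10:75948050-75948349 (+) for Vpreb3, chr16:16869206-16869505 (-) for Vpreb1 and chr16:16863936-16864235 (-) for Igll1. The RefSeq starts of Vpreb3 and Vpreb1 lie inside the GENCODE gene spans given below, which begin farther upstream.
Cd79a: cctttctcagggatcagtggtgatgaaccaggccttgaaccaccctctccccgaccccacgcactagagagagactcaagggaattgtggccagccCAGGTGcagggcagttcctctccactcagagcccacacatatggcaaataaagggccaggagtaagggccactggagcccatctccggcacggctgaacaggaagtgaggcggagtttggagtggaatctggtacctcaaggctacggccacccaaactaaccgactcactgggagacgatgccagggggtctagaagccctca
Vpreb3: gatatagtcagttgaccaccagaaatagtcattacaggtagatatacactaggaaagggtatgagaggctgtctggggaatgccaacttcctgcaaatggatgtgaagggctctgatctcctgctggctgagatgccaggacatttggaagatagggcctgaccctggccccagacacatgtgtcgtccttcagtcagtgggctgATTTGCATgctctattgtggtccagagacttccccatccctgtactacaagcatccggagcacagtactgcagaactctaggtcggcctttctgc
Vpreb1: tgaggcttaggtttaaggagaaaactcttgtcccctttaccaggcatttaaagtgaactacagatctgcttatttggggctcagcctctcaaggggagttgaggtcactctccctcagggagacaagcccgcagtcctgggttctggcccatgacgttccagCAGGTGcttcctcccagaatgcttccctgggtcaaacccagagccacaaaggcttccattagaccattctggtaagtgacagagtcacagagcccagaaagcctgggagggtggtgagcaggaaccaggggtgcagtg
Igll1: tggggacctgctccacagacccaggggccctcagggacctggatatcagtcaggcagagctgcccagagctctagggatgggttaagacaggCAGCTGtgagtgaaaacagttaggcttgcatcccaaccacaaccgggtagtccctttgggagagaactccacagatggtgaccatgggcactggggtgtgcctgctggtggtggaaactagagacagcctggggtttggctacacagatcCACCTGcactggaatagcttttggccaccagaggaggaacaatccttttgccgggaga

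Of 32851 promoters of the same length, 32.9% held at least 1 of these E-boxes and 1.74% held the octamer on either strand. The Cd79a, Vpreb1, Igll1 and Rag1 promoters held an E-box, the Vpreb3 promoter held the octamer, and the Rag2 and Dntt promoters held neither. TCCCNNGGGA, a palindromic form of the EBF1 site found in 0.904% of promoters, was in none of these 7. Promoters of Cd79b, Ighm and Igkc were not used here.

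Cells with 3 or more UMIs of Cd79a (unique molecular identifiers, 1 for each captured transcript) are called Cd79a-high. They made up 205 of 7268 singlets, the cells that carried 1 hashtag, and numbered 40 (DEX-1), 58 (DEX-2), 52 (PBS-1) and 55 (PBS-2). The limit fell in a sparse part of the distribution. No Cd79a UMI was found in 7037 singlets, 22 had 1 UMI, 4 had 2, 3 had 3, 5 had 4, and 165 had 11 or more. Of the Cd79a-high cells, 196 lay in cluster 8, which held 199 cells, was found without the members or any immunoglobulin row, and was led by Ly6d, Cd74, Ms4a1 and Ccr7. Of the other 9, 6 lay among mesenchymal-like cells, 1 among epithelial-like cells and 2 in cluster 14, an unnamed cluster led by Prtn3, Car1 and Mpo. These 9 cells were large, and held 35.7% of the summed UMIs of Cd79a-high cells of litter DEX-1, 4.62% of DEX-2, none of PBS-1 and 11.01% of PBS-2.

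The B label held against markers that do not include the members. All 10 B cell markers were detected, from Cd22, an inhibitory co-receptor, in 26.8% of the Cd79a-high cells, through Pax5 in 38.5%, to Cd37 in 98.5%, and their summed level ran from 8158 to 11100 counts per 1000000 UMIs (CPM) over the litters. Cd37 alone does not mark B cells here, since it was also found in 94.4% of ILC2-like cells, where Pax5 and Cd22 gave no UMI. Cluster 8 is called B-like on the ground of the 10 markers together. The 11 ILC2 markers were rare: Gata3 was found in 3 cells and Il1rl1, which encodes ST2, in 6 (2.93%). The mast cell list summed to 85.1, 1278, 129.5 and 2675 CPM in DEX-1, DEX-2, PBS-1 and PBS-2, the epithelial list to 632 to 1617, and the mesenchymal list to 14.95 to 717. Fcer1a and Mcpt8 were at 0, as were Cd3e, Cd4 and Cd8a of the T cell list and all 6 eosinophil markers. The surfactant gene Sftpc, which B cells do not make, gave UMIs in 76.9% of B-like cells, a measure of the free RNA in the droplets. The median depth was 3566 UMIs per Cd79a-high cell, against 7186 per ILC2-like cell, and the summed depth was 200732 to 226185 UMIs per litter.

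The receptor was nearly complete in these cells. Cd79a (chr7:24897381-24902197, + strand, GRCm38) and Cd79b (chr11:106311341-106314762, -), the paired signalling chains, were detected together in all 205 cells, which the choice of cells fixes for Cd79a but not for Cd79b. Ighm (chr12:113418558-113422730, -) was found in 202 cells (98.5%, 95% Wilson interval 95.8 to 99.5). Igkc (chr6:70726435-70726966, +, overlapped on the same strand by the noncoding gene Gm30211) was found in 186 cells (90.7%, 86.0 to 94.0), in 38 of 40, 54 of 58, 45 of 52 and 49 of 55 cells of DEX-1, DEX-2, PBS-1 and PBS-2. Among 2078 ILC2-like cells, which should lack a kappa chain, Igkc gave no UMI at the greater depth. Cd79b had a median of 10 UMIs per Cd79a-high cell and at least 1 in every cell, Ighm a median of 5, and Igkc a median of 4 with a highest value of 36. The intervals cover counting error only.

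Light chain constant regions were found in nearly every cell, and the variable segments were mostly kappa. A constant region of either kind, Igkc or Iglc1 to Iglc3, gave at least 1 UMI in 201 cells (98.0%) and 5 or more in 178 (86.8%). Kappa V segments (Igkv) gave 5 or more UMIs in 194 cells (94.6%) and lambda V segments (Iglv) in 7 (3.41%), with 5 cells above this limit for both and 9 for neither. Lambda constant UMIs were nevertheless common, with Iglc3 in 171 cells and Iglc1 in 118. Of the 189 cells with kappa V alone, 168 (82.0% of all Cd79a-high cells) also held a lambda constant UMI. Iglc2 and Iglc3 are near-identical copies, so their split is uncertain. Heavy chain V segments (Ighv) gave 5 or more UMIs in 172 cells (83.9%) and at least 1 in 198.

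**Figure D1:**
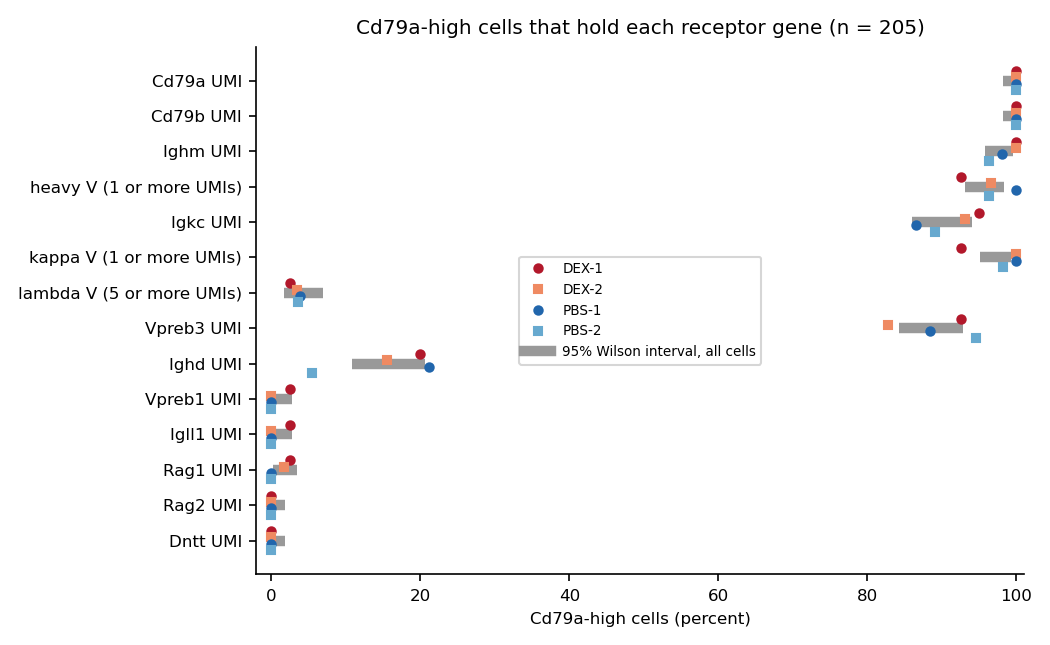
Share of Cd79a-high cells in which each receptor gene or segment family was detected, in percent, with the 4 litters as points and the 95% Wilson interval over all 205 cells as a grey bar. Cd79b, Ighm, Igkc and Vpreb3 lie above 80% in every litter, and Vpreb1, Igll1, Rag1, Rag2 and Dntt lie at or near 0.

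Genes of the earlier steps were all but missing. Vpreb1 (chr16:16868403-16870843, -, inside Top3b on the opposite strand) and Igll1 (chr16:16860671-16863985, -), the parts of the surrogate light chain, were each found in 1 of 205 cells (0.488%, 0.0862 to 2.71), and it was the same cell. Vpreb1 gave single UMIs in 0.626% of ILC2-like cells, so this share alone lay within the background, and the 12 UMIs of that 1 cell did not. Rag1 (chr2:101638282-101649501, -, overlapped on the same strand by the gene B230118H07Rik) gave 1 UMI in each of 2 B-like cells, from the litters DEX-1 and DEX-2. Rag2 (chr2:101624718-101632529, +, overlapped by B230118H07Rik on the opposite strand) and Dntt (chr19:41029275-41059525, +) gave none. A count of 0 of 205 cells allows a share of cells with a UMI of up to 1.46%, which does not limit the share that expresses the gene below detection. No pro-B cells were identified here to show whether fetal ones hold Dntt, so no stage is read from its absence. Vpreb3 (chr10:75943057-75949657, +) stood apart from the surrogate chain genes. It was found in 183 cells (89.3%, 84.3 to 92.8), in 37, 48, 46 and 52 cells of DEX-1, DEX-2, PBS-1 and PBS-2, with a median of 5 UMIs. No ILC2-like cell held a Vpreb3 UMI. Ighm, Igkc, Cd79b and Vpreb3 were all detected in 164 cells (80.0%).

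The single cell with surrogate light chain came from DEX-1 and lay in cluster 14, outside the B-like cluster. It held 18 UMIs of Igll1, 12 of Vpreb1, 5 of Vpreb2, 20 of Vpreb3, 14 of Cd79a, 17 of Cd79b and 11 of Ighm, in 23765 UMIs in all. It held no UMI of Igkc, of any lambda constant row, of any V segment, or of Rag1, Rag2 and Dntt. Ebf1, a B lineage transcription factor, gave 14 UMIs, and the replication gene Rrm2 and the mitotic gene Top2a gave 18 and 9. A second cell of cluster 14, also from DEX-1, held 16 UMIs of Cd79a, 8 of Cd79b, 2 of Ighm and 6 of Vpreb3 with no light chain, V segment or surrogate chain. With 1 positive cell, a comparison of cells with and without surrogate light chain could not be tested.

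Across the whole set, cells without surrogate light chain numbered 178 with 5 or more light chain constant UMIs, 23 with 1 to 4 and 3 with none. Of those 3, 1 was the second cluster 14 cell and the remaining cells were B-like cells that carried 8 and 45 kappa V UMIs. These light chain counts sum Igkc with Iglc1 to Iglc3, and the lambda rows gave 1357 of the 2339 UMIs. Lambda constant UMIs were common in cells with kappa V alone, so the counts do not show which light chain a cell uses. Later markers varied among the cells. Ighd, the delta constant region that mature B cells splice to the same V segment, was found in 31 cells (15.1%, 10.9 to 20.7), in 8, 9, 11 and 3 cells of DEX-1, DEX-2, PBS-1 and PBS-2, so PBS-2 had the fewest. Class-switched constant regions were limited to 1 UMI each of Ighg3 and Igha. In the 31 cells with Ighd, the level of Cd93, an antigen of immature B cells, was 7.20 CPM (1 UMI), against 44.2 in the other 174 cells. The Ighd cells of each litter were few, and 1 UMI decides whether their Cd93 level is 0. It was 0 in 3 of the 4 litters, so nothing is read from the order within litters. Vpreb3 was higher in the Ighd cells of DEX-1 (2063 against 1249 CPM) and PBS-2 (2302 against 1703) and lower in those of DEX-2 (1266 against 1497) and PBS-1 (962 against 1652), so the litters went different ways. The median depth was 4128 and 3516 UMIs, and no test was made, since the cells of a litter are not replicates.

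Of the late B lineage list, Ms4a1 (CD20) and Cd74, the invariant chain of antigen presentation, were each found in 97.1% of Cd79a-high cells, Ccr7 in 85.4%, the BAFF receptor Tnfrsf13c in 74.6%, H2-Aa in 50.2% and the IgM receptor Fcmr in 43.9%. A pair of genes of follicular B cells were rare, with Fcer2a (CD23) in 3.90% and Cr2 (CD21) in 1 cell. Of the early list, the interleukin 7 receptor Il7r was found in 5.37%, Kit in 4.88%, Cd93 in 11.2% and Sox4 in 17.1%. Il7r was in 96.1% of ILC2-like cells. The transcription factors Ebf1 and Pax5 were found in 87.3% and 38.5%, and the signalling genes Blnk and Syk in 78.5% and 58.5%. Plasma cell genes other than the chaperone Mzb1 (87.8%), Irf4 (33.7%) and Xbp1 (22.4%) were in under 2% of cells, with Sdc1 and Prdm1 at 1.95%. The proliferation gene Mki67 was found in 3 cells (1.46%). Of genes linked to B-1 or fetal B cells, Plac8 was found in 82.9%, Arid3a in 41.0%, Bhlhe41 in 15.1% and Cd5 in 5.37%. In the same list Myc was found in 33.7%, Igf2bp3 in 22.4%, Bhlhe40 in 13.7%, Lin28b in 0.976% and Zbtb32 in none. Plac8 and Arid3a were also found in 19.8% and 14.8% of ILC2-like cells, and no B-1 or fetal identity is read from this list.

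Each cell mostly used 1 heavy chain V segment, and the cells differed. The matrix held 185 Ighv rows, of which 51 had a UMI in Cd79a-high cells. In 165 of the 172 cells with 5 or more Ighv UMIs (95.9%), 1 row held at least 90% of them, and 43 rows were the main row of some cell. The kappa segments were less sharply assigned: 78 of 160 Igkv rows had a UMI, 58 were a main row, and 1 row held at least 90% in 138 of 194 cells (71.1%). V segments of a family share much sequence, so the row that received a read is uncertain.

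Ighv1-81, which lies 2500 kb from Ighm, was the main row in the most cells, 27, made up of 2, 9, 9 and 7 in DEX-1, DEX-2, PBS-1 and PBS-2. Ighv2-2 (168 kb) and Ighv5-6 (205 kb), near the constant region, followed with 16 cells each, Ighv2-2 in 2, 2, 9 and 3 cells of those litters and Ighv5-6 in 5, 3, 5 and 3. Ighv1-53 was found in 10 cells and was the main row in 4, and Ighv10-3, Ighv2-5 and Ighv1-64 were found in 8 each. The main rows lay nearer to Ighm than the middle row in 115 of 172 cells (66.9%), at a median rank of 59 where the middle rank is 93, while the most used row was among the farthest, at rank 180. For kappa the nearer rows took 113 of 194 cells (58.2%).

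Among kappa rows, Igkv10-96 was the main row in 14 cells (7, 5, 1 and 1 in DEX-1, DEX-2, PBS-1 and PBS-2), Igkv12-44 in 13, Igkv4-57 in 10 and Igkv19-93 in 8. Igkv19-93 gave UMIs in 20 cells, the most of any kappa row, and Igkv12-89 gave a single UMI in each of 13 cells and was main in none. Of the lambda rows, Iglv1 gave 519 UMIs in 19 cells and was the main row of all 7 cells above the limit, Iglv3 gave 34 UMIs in 30 cells, and Iglv2 gave none. Heavy and kappa rows could both be assigned in 167 cells, which held 143 pairs. Of these, 123 occurred in 1 cell and 20 in more than 1. The most repeated pair, Ighv1-81 with Igkv5-48, was found in 4 cells, all of DEX-2. Sequence of the junctions was not analysed here, so cells with the same pair are not known to be a clone.

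**Figure D2:**
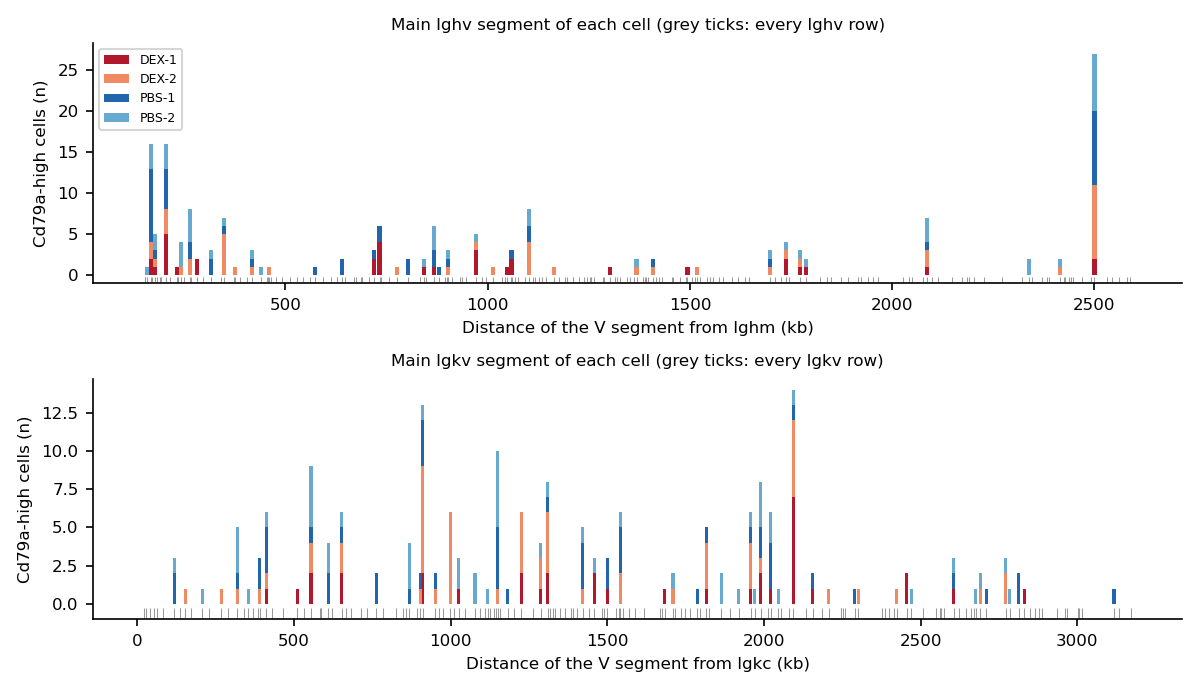
Number of Cd79a-high cells whose main V segment lies at each distance (kb) from Ighm (upper panel, 172 cells) or Igkc (lower panel, 194 cells), stacked by litter, with grey ticks at every V row of the matrix. The highest bar of the upper panel is Ighv1-81, 27 cells at 2500 kb, and the bars of the lower panel spread over the whole locus.

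To ask whether maternal DEX altered the receptor genes of these cells, the UMIs of Cd79a-high cells were summed per litter and compared by the edgeR quasi-likelihood test over 3569 genes. Cd79a-high cells made up 2.30% and 3.07% of singlets in DEX-1 and DEX-2 and 2.97% and 2.91% in PBS-1 and PBS-2. The means were 2.69% ± 0.544 (SD, n = 2) for DEX and 2.94% ± 0.0398 for PBS, the PBS litters lay between the DEX litters, and the exact permutation test (two-sided) gave p = 1. With 2 litters against 2 this test cannot go below 0.333. None of the 5 members tested was called at an adjusted p under 0.05, where 0.112% of all genes were called (4 genes, and 155 at an unadjusted p under 0.05). The other 5 members had too few counts.

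Cd79a stood at 3834 and 4846 TMM-normalised CPM in DEX-1 and DEX-2 and at 5117 and 5186 in PBS-1 and PBS-2, a log2 fold change of -0.25 ± 0.13 (SE, adjusted p = 0.992 by edgeR with Benjamini-Hochberg adjustment). Both DEX litters lay below both PBS litters, but Cd79a also chose the cells. Vpreb3 stood at 1606 and 1644 in the DEX litters and 1651 and 2003 in the PBS litters (-0.17 ± 0.15). Its DEX litters also lay below, by little in PBS-1. The same order held for 16.7% of all genes tested, and nothing is read from its holding for 2 of 5 members.

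Igkc stood at 834 and 1463 CPM in DEX-1 and DEX-2 and at 1590 and 1339 in PBS-1 and PBS-2 (log2 fold change -0.35 ± 0.26), Ighm at 1280, 1612, 1461 and 1860 (-0.20 ± 0.18), and Cd79b at 2492, 3500, 3241 and 3112 (-0.08 ± 0.17), with the same adjusted p of 0.992 by edgeR and Benjamini-Hochberg. DEX-1 was the lowest litter for each and the groups overlapped. Within the B-like cluster alone, which leaves out the large cells that held 35.7% of DEX-1's UMIs, the values were -0.05 for Cd79a, -0.02 for Vpreb3, -0.14 for Igkc, 0.02 for Ighm and 0.07 for Cd79b. Igkc rested on DEX-1, and was -0.01 without this litter and -0.82 without DEX-2.

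The 4 genes called were 3 kappa V segments and Mt1, a metallothionein. Igkv10-96 gave 254 and 172 UMIs in DEX-1 and DEX-2 and 51 and 47 in PBS-1 and PBS-2, from 8, 6, 2 and 2 cells, a log2 fold change of 2.08 ± 0.25 (edgeR, Benjamini-Hochberg adjusted p = 0.0494). Igkv3-7 gave no UMI in either DEX litter and 97 and 63 in the PBS litters, from 3 cells, and Igkv12-41 none against 54 and 108, from 4 cells. A V segment is on in the few cells that rearranged it, so these calls count UMIs of a few cells, and 5.66% of the 53 V rows tested were called. Mt1 rose by 4.20 ± 0.41 (adjusted p = 0.0310), with 83 and 127 UMIs in the DEX litters and 7 and 4 in the PBS litters, and 79.6% of these UMIs came from 5 of the 9 cells outside the B-like cluster. Under the other tools and hashtag callers none of the 4 calls held throughout.

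No gene of the other lists was called in Cd79a-high cells. Of these lists, 4 other receptor chains, 2 early and 17 late B lineage genes, 15 transcription factors, 16 signalling genes, 5 B-1 or fetal genes, 3 plasma cell, 4 cell cycle and 8 glucocorticoid target genes were tested, with medians from -0.38 to 0.38 against -0.00038 for all genes. Iglc2 had the lowest adjusted p among them, 0.511 by edgeR and Benjamini-Hochberg, with 14 and 17 UMIs in DEX-1 and DEX-2 and 34 and 51 in PBS-1 and PBS-2 (log2 fold change -1.47).

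**Figure D3:**
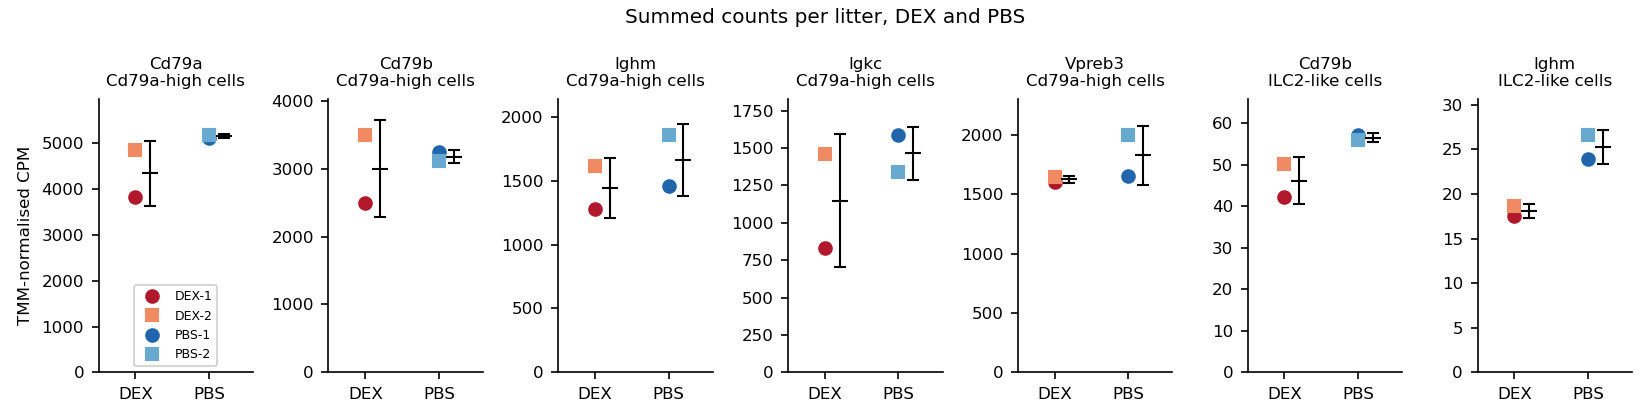
TMM-normalised CPM of summed counts in each litter, for 5 members in Cd79a-high cells and 2 members in ILC2-like cells, with the mean and SD of each group (n = 2) beside the points and axes that start at 0. DEX-1 lies lowest for Cd79a, Cd79b, Ighm and Igkc in Cd79a-high cells, and both DEX litters lie below both PBS litters for Cd79b and Ighm in ILC2-like cells.

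Among the other cells, part of the receptor was found in ILC2-like cells: Cd79b and Ighm were present, and Cd79a, Igkc and Vpreb3 were absent or nearly so. The ILC2-like cells, 2078 cells of 4 clusters, held Gata3 in 88.5% and Il1rl1 in 71.4%, and Cd3e of the T cell receptor complex in 18.1%. Cd79b gave 904 UMIs in them (51.1 CPM, 31.8% of cells) and Ighm 386 (21.8 CPM, 13.7%). Cd79a gave 6 UMIs (0.339 CPM), and Igkc and Vpreb3 gave 0, where 3 counts correspond to 0.170 CPM. The Cd79b level ran from 42.4 to 57.6 CPM over the litters and the Ighm level from 17.6 to 26.5.

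The ratios between the genes set ILC2-like apart from B-like cells. For each Cd79a UMI there were 151 of Cd79b in ILC2-like cells and 0.644 in B-like cells. For each Ighm UMI there were 0.863 of Igkc in B-like cells and 0 of Igkc in ILC2-like cells, and 2.64 of Ighv rows against 0.0855. The proportions of B cells were thus not found in ILC2-like cells, and their Ighm UMIs came almost without V segments. Of cells with Ighm, 35.4% held Cd79b, against 31.2% of the others, with median depths of 8065 and 7009 UMIs. The share was lower in cells with Ighm in DEX-1 (20.3% against 29.15%). It was higher in DEX-2 (35.7% against 29.0%), PBS-1 (35.2% against 32.6%) and PBS-2 (44.4% against 33.8%).

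In the order of classes by Cd79b level, B-like cells came first with 2931 CPM. Mesenchymal-like cells (52.5) and ILC2-like cells (51.1) followed and did not separate, since the mesenchymal-like litters ran from 12.9 to 102 and 6 of the 200 mesenchymal-like cells were Cd79a-high. Cluster 14 (31.4), epithelial-like cells (28.7), cluster 7 (26.6, led by S100a8 and Ctss), cluster 2 (21.7, led by Gzmb and Scin) and cluster 12 (17.8, led by Higd1b) overlapped with their neighbours in turn. Cluster 12 was separate from the basophil or mast-like cells (12.7), and endothelial-like cells were lowest at 8.39. For Ighm, B-like cells had 1490 CPM, mesenchymal-like cells 23.3 (litters from 1.84 to 74.7), ILC2-like cells 21.8 and cluster 7 11.6, and basophil or mast-like cells had 0.937. These are descriptions with no test, since the classes come from the same cells.

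**Figure D4:**
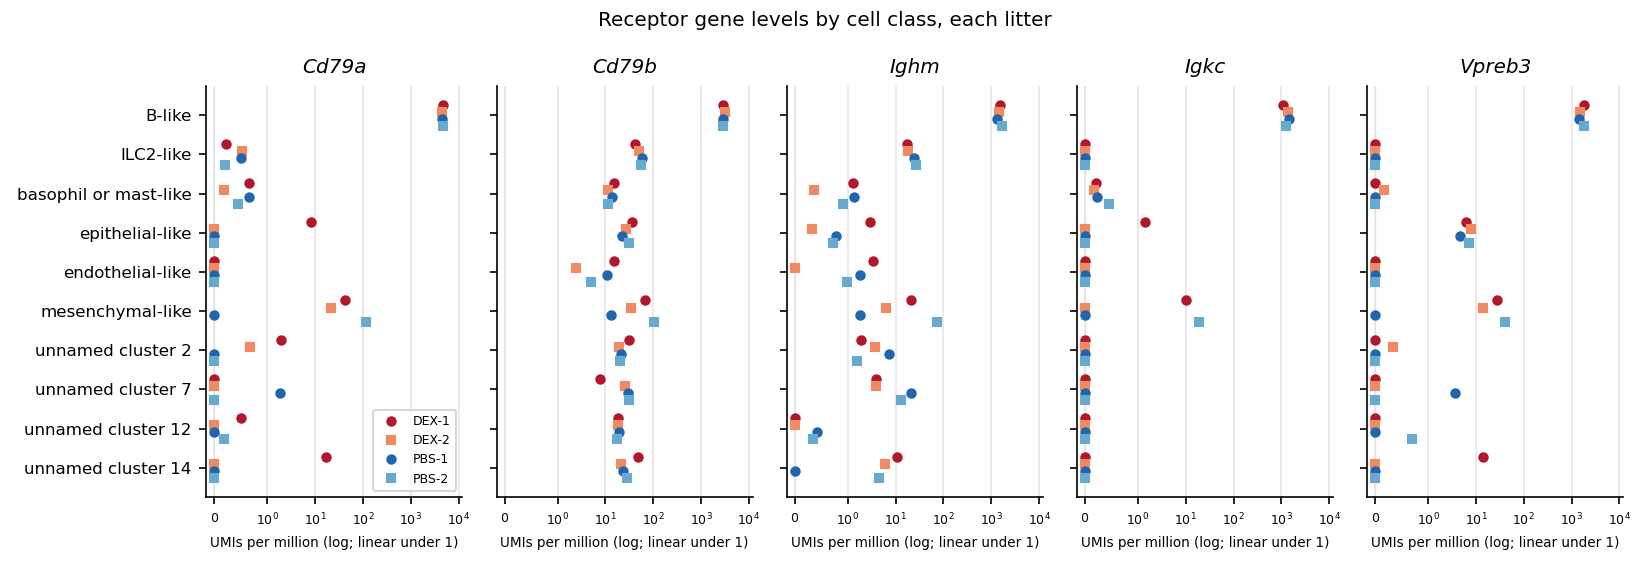
Level of 5 members in 10 cell classes, in CPM on an axis that is logarithmic above 1 and linear below, with 1 point per litter. All 5 genes are highest in B-like cells, and in ILC2-like cells Cd79b and Ighm lie between 17.6 and 57.6 CPM while Igkc and Vpreb3 lie at 0.

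With each cell thinned to 2000 UMIs, Cd79b was found in 8.87% of ILC2-like cells and 2.20% of basophil or mast-like cells, and Ighm in 4.19% and 0.160%. The unthinned shares in basophil or mast-like cells were 7.24% and 0.546%. Over the litters DEX-1, DEX-2, PBS-1 and PBS-2 the thinned share for Cd79b was 7.82%, 9.51%, 7.87% and 10.2%, and for Ighm 3.64%, 2.88%, 4.97% and 5.12%. Both DEX litters were below both PBS litters for Ighm, and the groups overlapped for Cd79b. The Wilson intervals for Ighm overlapped even between the lowest litter, DEX-2 (1.69% to 4.86%), and the highest, PBS-2 (3.58% to 7.25%). How many of all genes share the order of Ighm after thinning was not counted, so nothing is read from it.

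To ask whether DEX altered these 2 genes in ILC2-like cells, the same test was run on ILC2-like sums over 10647 genes, of which 2.45% were called. Ighm stood at 17.5 and 18.7 TMM-normalised CPM in DEX-1 and DEX-2 and at 24.0 and 26.7 in PBS-1 and PBS-2, a log2 fold change of -0.49 ± 0.16 (edgeR, Benjamini-Hochberg adjusted p = 0.161). Cd79b stood at 42.3 and 50.1 against 57.3 and 55.8 (-0.30 ± 0.12, adjusted p = 0.271). For each gene both DEX litters lay below both PBS litters, an order that 21.2% of the genes tested shared, and neither gene was called. Over all alternatives the log2 fold change ran from -0.67 to -0.20 for Ighm (adjusted p from 0.112 to 1) and from -0.42 to -0.03 for Cd79b (0.143 to 1). The B cell marker list, of which Pax5 and Cd22 were among those at 0, summed to 498, 472, 535 and 511 CPM in DEX-1, DEX-2, PBS-1 and PBS-2. It was also lower in the DEX litters, and Cd37, which ILC2-like cells express, gave most of it. The part of these markers in the result was not tested.

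By cluster, the order was kept in the larger groups of cells. The clusters are parts of the same 4 litters, so this does not repeat the result. How many of all genes share the order was not counted by cluster, and in ILC2-like cells as a whole it was 21.2%. In cluster 3 (1161 cells, led by Calca and Hilpda), Ighm stood at 20.1 and 21.7 CPM in DEX-1 and DEX-2 and at 29.7 and 35.6 in PBS-1 and PBS-2, without overlap. In cluster 4 (496 cells, led by Tcrg-C1 and Cxcr6) Cd79b stood at 52.5 and 67.7 against 90.4 and 82.6, its highest level in any ILC2-like cluster of more than 29 cells, again without overlap, and Ighm at 20.4 and 27.5 against 28.5 and 28.8. T cell receptor genes (Tcrg-C1, Tcrg-C4 and Trbc1) are among the 10 leading genes of cluster 4, and whether it holds other lymphocytes was not tested. The T cell list summed to 538 to 612 CPM over the litters in ILC2-like cells as a whole. In cluster 10, led by cell cycle genes, Ighm was lower in every litter, at 12.7, 7.02, 12.5 and 13.0, and the groups overlapped.

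**Figure D5:**
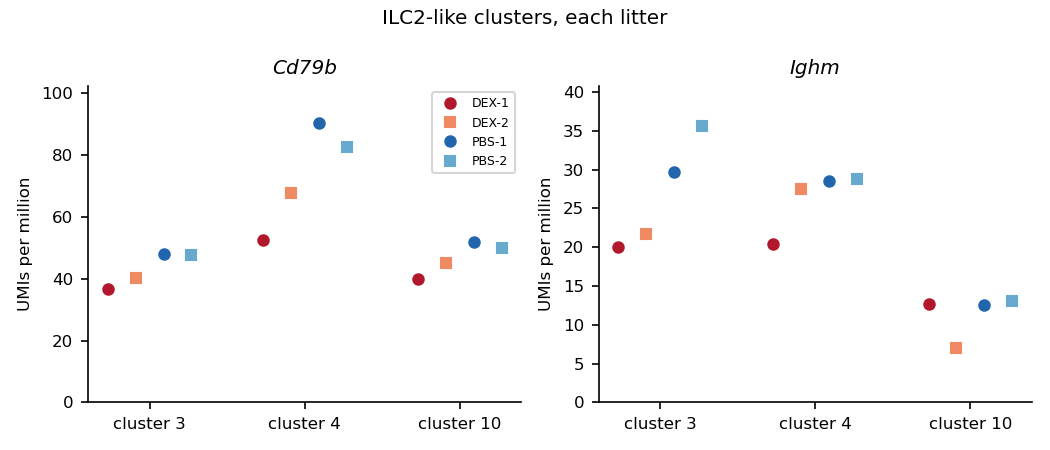
Level of Cd79b and Ighm in the 3 largest ILC2-like clusters, in CPM with 1 point per litter and axes that start at 0. The DEX litters lie below the PBS litters in each panel and cluster except for Ighm in cluster 10, where they overlap.

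In ILC2-like cells, 2.45% of all genes tested were called. Of 17 glucocorticoid target genes tested, 4 rose and 1 fell by the edgeR test with Benjamini-Hochberg adjustment. Errfi1 rose by 0.75, Bcl2l11, which promotes cell death, by 0.54, Sgk1 by 0.50 and Zbtb16 by 0.46, while Fkbp5 fell by 0.51 (all log2). The other target genes were not called, among them Tsc22d3 (0.11), Per1 (0.01), Dusp1 (-0.13) and Klf9 (-0.22). No glucocorticoid response is read from this list. Few genes of the other lists were called. Of 12 early B lineage genes tested only Sox4 rose (0.92), and of 6 B-1 or fetal genes only Plac8 rose (0.86). No late B lineage gene (9 tested), B lineage transcription factor (11) or receptor signalling gene (8) was called. The calls of Errfi1, Bcl2l11, Sgk1, Zbtb16, Fkbp5, Sox4 and Plac8 were lost when all singlets were summed. With DESeq2 or after thinning, Errfi1 alone of these 7 was called, and without the cell cycle cluster Errfi1 and Sox4 were. The calls of Fkbp5, Zbtb16, Sgk1, Sox4 and Plac8 were also lost in further settings.

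The rarer members appeared in other cells. Vpreb3 gave 60 UMIs in 15 of the 44 cells of cluster 16, epithelial-like cells led by Scgb3a2, Scgb1a1 and Foxj1, where Cd79a gave none. Foxj1, the ciliated cell regulator, was found in all 15 cells with Vpreb3 and in 16 of the 29 without, and Tppp3, another gene of ciliated cells, stood at 1337 and 202 CPM in them, at median depths of 33248 and 29536. Scgb1a1, of secretory cells, stood at 35110 and 30720. Vpreb1 gave 103 UMIs in 91 singlets, none of them in the B-like cluster and nearly all single UMIs. Igll1 gave 20 UMIs in 3 cells, 18 of them in the cell described above.

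The recombinase genes did not mark B cells. Rag2 gave 18 UMIs in 15 cells, of which 12 lay in cluster 2 and none was B-like. Rag1 gave 8 UMIs in 3 cells, the B-like cells with 1 UMI each and 1 cell of cluster 4 from DEX-1 that held 6, together with 13 UMIs of Cd3e and none of Gata3. Dntt gave 4 UMIs in 4 cells of 4 different clusters. Over the 10 classes, the genes outside the members whose level was most like that of Cd79a included Cxcr5 (Pearson r = 0.982), Iglc3 (0.981), Gm30211 (0.981) and Ighv5-9 (0.980), a description over classes that rests on the B-like class and shares 1 library.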

How the data were processed

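Fetal lung cells sorted for ILC2s were profiled as 1 droplet 5′ library with hashtags for 4 litters (2 DEX, 2 PBS, 30 fetuses). The authors deposited unnormalised UMI counts for each gene in each barcode, made with Cell Ranger 7 on mm10, per the submitters' processing notes. Positions are from GENCODE M21 and promoters from RefSeq (7 of 10 members matched).

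Barcodes with at least 200 genes and at most 5% mitochondrial UMIs, the study's limits, were kept (10409), and no barcode occurred more than once. HTODemux (Seurat 5.3.0) called 7268 singlets. Hashtag doublets (736) and barcodes without a hashtag (2405) were left out. Same-litter doublets were not removed, and the highest Scrublet scores were left out as an alternative. Clusters (scanpy 1.11.5) were found without the members, immunoglobulin rows and sex-linked genes. Raw counts were summed per litter over Cd79a-high or ILC2-like cells and tested with edgeR 4.0.16 (R 4.3.3) quasi-likelihood, TMM and filterByExpr, with Benjamini-Hochberg adjustment over all genes tested. The alternatives were DESeq2 1.42.0, limma-voom (limma 3.58.1), other hashtag callers, limits, filters, thinning to 2000 UMIs, and leaving out each litter. Shares of litters were compared by the exact permutation test. The edgeR test was also run on counts simulated from the real means, and the outcome is not given here. Each litter pools the fetuses of 1 mother, per the labels, so p-values rest on 2 mothers against 2. A figure legend of the study gives 1 dam per group instead, which was not settled here. The planned comparison of cells with and without surrogate light chain, could not be tested with 1 positive cell.

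The text names the 10 members, list genes that passed, the V rows held by the most Cd79a-high cells, the called genes with the largest changes in Cd79a-high cells, and the genes most like Cd79a over classes with at least 50 CPM in 1 of them. The called genes of ILC2-like cells that are in no list are not receptor genes and are not described. Others were named after their values were seen, and 1 gene that the rule names is not reported here. The members, lists and tests were chosen with earlier results of these data known.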

Additional observations from a re-analysis of the deposited data

Results flagged for a closer look

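Barcodes that no comparison used also held B cells. Among the 736 hashtag doublets, 40 were Cd79a-high (5.43%, 95% Wilson interval 4.02 to 7.32), against 2.82% of singlets. A hashtag doublet holds more than 1 cell, so these shares are not like measures, and no excess of B cells is read from them. They had a median of 12350 UMIs, 39 held Igkc and 38 held Ighm, and Vpreb1 was found in 1 of them. Among the 2405 barcodes with no hashtag, 4 were Cd79a-high (0.166%).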

How the results depend on the processing

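The counts of called genes depended on the processing, and the cause was not tested. In Cd79a-high cells, 4 genes were called as reported, 97 with no filter on low counts, 8 with DESeq2, 7 in the B-like cluster alone, 7 under the ratio rule for hashtags, 2 at a limit of 2 Cd79a UMIs, 1 after thinning, and 0 under MULTIseqDemux, limma-voom and without high Scrublet scores, where 145, 126 and 139 genes had an unadjusted p under 0.05. Leaving out 1 litter gave 13 (without DEX-1), 57 (DEX-2), 100 (PBS-1) or 107 (PBS-2) calls, with fewer litters to estimate the spread. In ILC2-like cells, 261 genes were called as reported, 531 with no filter, 114 with DESeq2, 3 in all singlets, 79 after thinning and 163 without the cell cycle cluster (the last pair chosen after seeing the data), and 305 to 428 when a litter was left out, the highest without PBS-2. The mother numbers do not pair the litters (correlations -0.034 and 0.074), and a replicate block on them gave 4 calls in Cd79a-high cells and 426 in ILC2-like cells.

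No member that passed the filter on low counts was called under any setting. With no filter, Igll1 was called in Cd79a-high cells (edgeR, Benjamini-Hochberg adjusted p = 0.0207), on the 18 UMIs of 1 cell. In Cd79a-high cells the direction turned for Ighm (0.02) and Cd79b (0.07) in the B-like cluster alone, for Cd79b after thinning (0.06) and without DEX-1 (0.13, in a range of -0.36 to 0.13 over litters left out). The same ranges were -0.82 (without DEX-2) to -0.01 (without DEX-1) for Igkc, -0.43 to -0.09 for Cd79a with the same litters, -0.39 to -0.02 for Ighm and -0.33 to -0.03 for Vpreb3. With all singlets summed, Zbtb16 (-0.01), Sox4 (-0.00) and Sgk1 (-0.11) lost their rise. The difference in the share of Cd79a-high cells, DEX minus PBS, was -0.251 percentage points, 0.00546 under MULTIseqDemux and -0.635 to 0.134 with a litter left out. The share with surrogate light chain, 1.25 points higher in DEX from 1 cell, became 0 to 2.5. The alternatives planned for surrogate light chain positive against negative cells were not run. The median of 3566 UMIs per cell limits what single cells can show of genes with few transcripts.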
